A study of Mus musculus with 2 samples.

Results

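The C-type lectin, killer cell lectin-like receptor (KLR) and Siglec genes were read from 2 one-colour arrays of mouse glomerular RNA. A gene was taken as a member when its symbol, found through the RefSeq accession of the probe, began with Clec and a digit, with Klr, a letter from a to k and a digit, with Cd209, or with Siglec. This gave 70 genes on 97 probes, out of 20659 named genes on the array. They comprised 31 Clec, 26 Klr, 7 Cd209 and 6 Siglec genes. The name does not make every member a receptor: Clec3b (tetranectin) and Clec11a encode secreted proteins, and Clec16a encodes an intracellular membrane-trafficking protein.

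The samples were glomeruli, the filtering units of the kidney, from male mice aged 8 months. One array held RNA of mice with a podocyte-specific knockout of Sirpa (Sirpa-/-) and the other RNA of wild-type (WT) mice. Mice of both groups had received 0.5 ml of pristane, an oil that induces lupus-like disease, 4 months before, so no group without pristane was compared. The sources used here state neither the promoter that drives the deletion nor the number of mice behind each array, and the design text speaks of podocytes where the labels speak of glomeruli. With 1 array per group there was no replicate and no test between groups, so all differences below describe this single pair of arrays.

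C-type lectins are proteins with a shared calcium-dependent carbohydrate-binding fold, and many sit on dendritic cells and macrophages, where they bind sugars of microbes or of damaged cells. The activating ones, such as Mincle (Clec4e) and Dectin-2 (Clec4n), pair with the Fc receptor gamma chain and signal through the kinase SYK and the adaptor CARD9. KLR proteins have the same fold without the calcium site in most cases, and natural killer (NK) cells use them to read MHC class I and related ligands. Siglecs bind sialic acid and most carry inhibitory motifs that recruit the phosphatases SHP-1 and SHP-2. SIRPα recruits the same phosphatases.

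Sirpa itself did not match the label. Its only probe gave a processed signal of 17315 on the array labelled Sirpa-/- and 11624 on the WT array, a difference of 0.64 on the log2 scale. Whether this probe lies inside the deleted part is unknown here, and other cells of the glomerulus keep the gene. Each direction below therefore refers to an array by its label alone. Podocyte and endothelial markers were present on both arrays, all 8 of 8 in each list, with summed signals of 419319 and 246007 on the array labelled Sirpa-/- and of 392514 and 274599 on the WT array. Well above background were 86.7% of gene probes on the array labelled Sirpa-/- and 85.3% on the WT array, and both arrays lay on slide 1.

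Signals are the scanner software's background-subtracted intensities, and the value after ± is that software's own error estimate for the spot. The WT value was subtracted from that of the array labelled Sirpa-/- on the log2 scale, after each array was divided by the 75th percentile of its gene probes. A gene with several probes is given by its brightest probe that was well above background on both arrays. Signals of different probes are not levels that can be set against each other. A gene is called dim where either signal was under 50.

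Of the 70 members, 58 were measured on both arrays: 26 Clec, 20 Klr, 6 Cd209 and 6 Siglec genes. Another 5 were well above background on 1 array alone and 7 on neither. On the array labelled Sirpa-/-, 4 of the 58 were at least 2-fold higher (6.90%), against 1.56% of all 18239 measured genes. These were Cd209c, Cd209a, Klrg2 and Clec10a. At least 2-fold lower were another 4 (6.90%), against 1.67% of all measured genes: Clec4b1, Clec4a2, Cd209f and Siglecf. The median difference of the members was 0.00, as was that of all measured genes, and 44 of the 58 members (75.9%) lay within 1.5-fold, where 90.4% of all measured genes did. Dim probes carried most of the calls. Among the 23 dim members, 3 were higher (13.0%) and 4 lower (17.4%), where 4.00% and 4.12% of all dim genes passed. Among the 35 other members, 1 was higher (2.86%) and 0 were lower, against 0.856% and 0.955% of such genes. Correcting the background by normexp, which adds an offset to every signal, left 0 members past 2-fold in either direction, where 0.620% of all genes were higher and 0.433% lower.

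**Figure D1:**
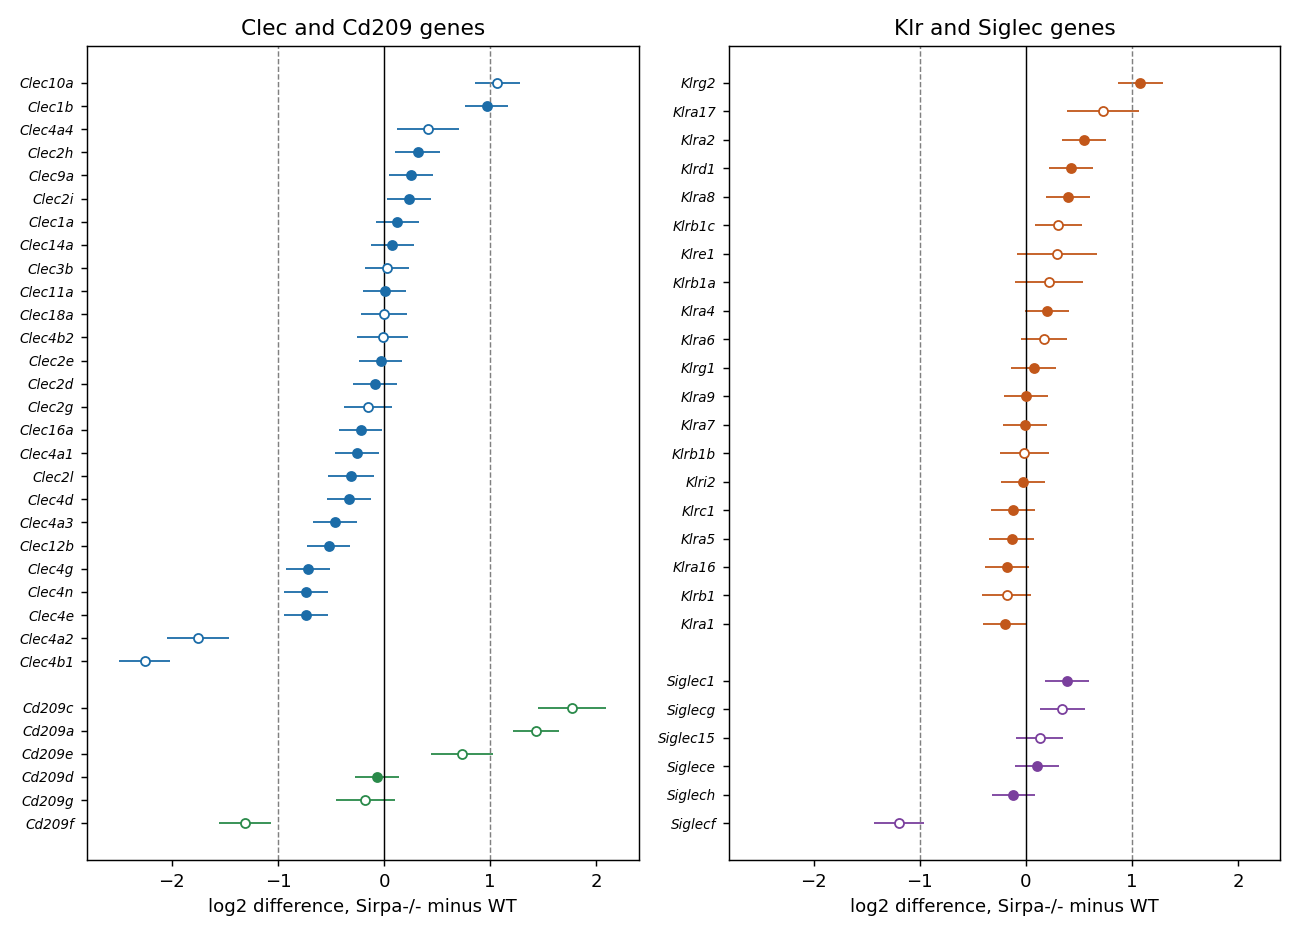
Log2 difference (x axis, array labelled Sirpa-/- minus WT array) of the 58 measured members, one row per gene, with the technical error computed from the scanner software's error estimates as bars. Open circles are dim genes and dashed lines mark 2-fold; 7 of the 8 genes beyond the dashed lines are open circles.

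**Figure D2:**
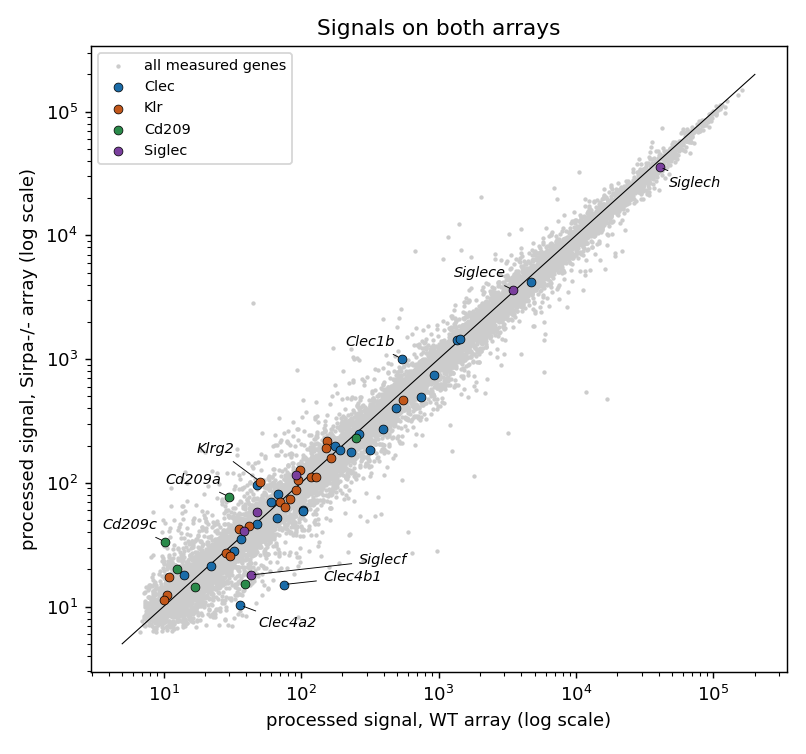
Processed signal on the array labelled Sirpa-/- (y axis, log scale) against that on the WT array (x axis, log scale) for 18239 measured genes in grey and the 58 members in colour by family, with a line of equal signal. The members past 2-fold lie at the lower left, where the grey cloud is also widest.

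The Cd209 genes, relatives of human DC-SIGN that bind mannose and fucose on dendritic cells and macrophages, held the highest difference and one of the lowest. Cd209c gave a signal of 33.4 ± 3.66 on the array labelled Sirpa-/- and 10.2 ± 1.97 on the WT array. This was 3.40-fold higher (log2 difference 1.77, technical error 0.32). Its other probe was above background on the array labelled Sirpa-/- alone, with 8.04 ± 1.76 there and 2.005 ± 1.997 on the WT array. Cd209a, the dendritic cell form, gave 77.3 ± 7.83 on the array labelled Sirpa-/- and 29.9 ± 3.35 on the WT array, 2.70-fold higher. The second Cd209a probe was also above background on the array labelled Sirpa-/- alone, with 9.45 ± 1.70 there and 5.88 ± 1.73 on the WT array. Both second probes lay near background and passed on 1 array alone, so they add no support for a direction. Cd209e gave 20.1 on the array labelled Sirpa-/- and 12.6 on the WT array, a log2 difference of 0.74 that did not reach 2-fold.

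Other genes of the cluster went the opposite way or lay near 0. The Cd209f probe read 15.2 ± 2.01 on the array labelled Sirpa-/- and 39.3 ± 4.20 on the WT array, a log2 difference of -1.31. Cd209d, the only Cd209 gene that was not dim, gave 230.6 on the array labelled Sirpa-/- and 252.1 on the WT array, a difference of -0.07, and Cd209g one of -0.18. Cd209b, known from marginal zone macrophages of the spleen, was not well above background on either array. The median of the 6 measured Cd209 genes was 0.33, with 3 above 0 and 3 below. Such neighbours on chromosome 8 thus did not share 1 direction. The promoters of the 3 Cd209 genes past 2-fold are shown because these genes differed in direction. They run from 250 bases before to 50 bases after the transcription start, 5′ to 3′ on the gene's strand, as RefSeq gives them for the build GRCm38.p6.
Cd209c, chr8:3946814-3947113, minus strand: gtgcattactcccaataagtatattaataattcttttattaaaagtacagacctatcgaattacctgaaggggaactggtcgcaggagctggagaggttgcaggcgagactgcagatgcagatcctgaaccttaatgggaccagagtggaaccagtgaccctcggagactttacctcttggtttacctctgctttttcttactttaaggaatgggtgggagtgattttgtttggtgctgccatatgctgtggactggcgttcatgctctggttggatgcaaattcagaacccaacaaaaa
Cd209a, chr8:3748935-3749234, minus strand: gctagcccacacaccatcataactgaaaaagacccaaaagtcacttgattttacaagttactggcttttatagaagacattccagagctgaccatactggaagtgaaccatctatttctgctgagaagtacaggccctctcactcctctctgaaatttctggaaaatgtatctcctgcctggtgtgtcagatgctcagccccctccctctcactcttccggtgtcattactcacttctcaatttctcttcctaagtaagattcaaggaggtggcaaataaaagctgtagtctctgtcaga
Cd209f, chr8:4105715-4106014, minus strand: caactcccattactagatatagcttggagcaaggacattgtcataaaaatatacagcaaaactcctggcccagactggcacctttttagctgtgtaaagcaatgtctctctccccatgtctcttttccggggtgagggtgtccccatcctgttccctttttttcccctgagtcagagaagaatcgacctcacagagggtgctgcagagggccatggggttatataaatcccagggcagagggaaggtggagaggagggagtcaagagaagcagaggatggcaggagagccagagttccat
Capitals would mark GAGGAA or its reverse complement TTCCTC, the core bound by the myeloid and B cell factor PU.1, and these 3 sequences hold none. The Cd209f window holds 1 match to TGANTCA, an AP-1 motif.

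Clec10a, the galactose-binding lectin MGL1 of macrophages and dendritic cells, gave 96.1 ± 9.75 on the array labelled Sirpa-/- and 47.9 ± 5.20 on the WT array. It was 2.09-fold higher, with a log2 difference of 1.07 and a technical error of 0.21. Its close relative Mgl2, which the symbol rule does not take in, gave 0.06. Clec9a, the receptor with which cross-presenting dendritic cells sense actin of dead cells, gave 69.6 on the array labelled Sirpa-/- and 60.8 on the WT array, a difference of 0.26. Markers of conventional dendritic cells, on a list that holds Mgl2, are given beside them. Of its 12 genes 8 were measured, 0 passed 2-fold on the brightest probe, and the median was 0.14, with Flt3 at 0.81 and Itgax at -0.49. A second, dim Flt3 probe gave 1.14. Cd207 (langerin) was above background on the WT array alone, with 1.52 on the array labelled Sirpa-/- and 13.0 on the WT array. Their summed signal was 97731 on the array labelled Sirpa-/- and 97586 on the WT array, nearly all of it from the Mgl2 probe, and Xcr1 and Ly75 were not well above background on either. The part of dendritic cell number in these differences was not tested.

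The Clec4 genes of chromosome 6 encode Dectin-2, Mincle, MCL (Clec4d) and the inhibitory or activating receptors of the DCIR and DCAR type. Of 9 measured genes, 8 lay below 0, 2 were at least 2-fold lower and 0 were higher. Of all 18239 measured genes, 9078 lay below 0, 1.67% were at least 2-fold lower and 1.56% higher. Their median was -0.46, where the median of all measured genes was 0.00. The 2 lowest were both dim on the array labelled Sirpa-/-, and 4.12% of all dim genes were at least 2-fold lower. Clec4b1 (DCAR), which pairs with the Fc receptor gamma chain, gave 15.1 ± 1.997 there and 75.04 ± 7.65 on the WT array, a log2 difference of -2.25. A second Clec4b1 probe, assigned to another transcript, gave 26.7 on the array labelled Sirpa-/- and 25.9 on the WT array, a difference of 0.11, so the 2 probes do not give this gene 1 direction. Clec4a2 (DCIR), which carries an inhibitory motif, gave 10.3 ± 1.73 on the array labelled Sirpa-/- and 36.1 ± 3.90 on the WT array. That is a difference of -1.75 from a single probe.

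The remaining genes of the group differed by less than 2-fold. Clec4e (Mincle), which recognises mycobacterial glycolipid and the nuclear protein SAP130 of dead cells, gave 59.6 ± 6.16 on the array labelled Sirpa-/- and 103.7 ± 10.5 on the WT array. Its log2 difference was -0.74, with a technical error of 0.21. Clec4n (Dectin-2), a receptor for fungal mannans, gave 184.0 ± 18.5 on the array labelled Sirpa-/- and 319.5 ± 32.0 on the WT array, a difference of -0.73. Both differences exceeded their technical error, and neither passed 2-fold. Clec4a3 gave -0.46, Clec4d -0.33 and Clec4a1 -0.26, while Clec4b2 lay at -0.01 and Clec4a4 at 0.42, both dim. With normexp, Clec4n gave -0.53, Clec4e, Clec4a3 and Clec4a1 each -0.27, Clec4d -0.13 and Clec4b2 0.11. The genes of this group that were not dim were 5, all below 0, with a median of -0.46. Several are recent duplicates, and a probe may read more than 1 of them.

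The signalling chain shared by these receptors showed no member past 2-fold. Fcer1g, the Fc receptor gamma chain, gave a signal of 1172.5 on the array labelled Sirpa-/- and 1700 on the WT array, a log2 difference of -0.47. Tyrobp (DAP12), the adaptor of other myeloid receptors, gave -0.41 and Plcg2 -0.26. Syk (0.12), Bcl10 (0.12), Malt1 (0.14) and the dim Card9 (0.16) lay slightly above 0, and Hcst (DAP10), which serves Klrk1, gave 0.53. All 18 genes of that list were measured, 0 passed 2-fold in either direction, and their median was 0.12.

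Macrophage markers stood beside the Clec4 genes as follows. Of 15 genes, 12 were measured and 0 passed 2-fold. Their median was -0.06, and -0.31 over the 9 that were not dim. Adgre1 (F4/80) gave -0.91, Cx3cr1 -0.71 and Csf1r -0.31, while Ccr2 gave 0.42 and Mrc1 0.36. The summed signal was 23367 on the array labelled Sirpa-/- and 21404 on the WT array, with most of it from Mertk and Mrc1. In whole glomeruli, fewer cells of a type and less RNA per cell cannot be told apart. How far macrophage number took part in the Clec4 differences was not tested.

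Promoters of 4 Clec4 genes are given because 8 of the 9 genes lay below 0, with Clec4b2 only at -0.01. They cover the same window and build, with GAGGAA and its reverse complement TTCCTC in capitals.
Clec4b1, chr6:123049712-123050011, plus strand: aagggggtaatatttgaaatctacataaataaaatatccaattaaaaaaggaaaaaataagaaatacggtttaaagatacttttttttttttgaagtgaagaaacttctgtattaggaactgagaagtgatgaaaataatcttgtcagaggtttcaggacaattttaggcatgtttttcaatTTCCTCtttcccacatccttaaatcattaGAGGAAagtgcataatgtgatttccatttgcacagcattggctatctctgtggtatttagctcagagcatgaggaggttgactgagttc
Clec4a2, chr6:123122440-123122739, plus strand: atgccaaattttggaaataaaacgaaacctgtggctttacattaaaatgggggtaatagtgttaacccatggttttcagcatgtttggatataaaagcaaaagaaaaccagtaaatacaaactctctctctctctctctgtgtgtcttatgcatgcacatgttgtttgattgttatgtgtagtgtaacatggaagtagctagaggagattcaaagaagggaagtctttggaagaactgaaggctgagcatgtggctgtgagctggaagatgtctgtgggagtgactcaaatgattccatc
Clec4e, chr6:123289822-123290121, minus strand: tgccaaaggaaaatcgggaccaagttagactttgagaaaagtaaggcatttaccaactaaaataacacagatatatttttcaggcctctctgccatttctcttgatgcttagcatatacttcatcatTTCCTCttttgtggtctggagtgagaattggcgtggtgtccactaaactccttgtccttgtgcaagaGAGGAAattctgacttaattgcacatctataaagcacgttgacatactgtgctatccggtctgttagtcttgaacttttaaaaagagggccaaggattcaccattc
Clec4a1, chr6:122921598-122921897, plus strand: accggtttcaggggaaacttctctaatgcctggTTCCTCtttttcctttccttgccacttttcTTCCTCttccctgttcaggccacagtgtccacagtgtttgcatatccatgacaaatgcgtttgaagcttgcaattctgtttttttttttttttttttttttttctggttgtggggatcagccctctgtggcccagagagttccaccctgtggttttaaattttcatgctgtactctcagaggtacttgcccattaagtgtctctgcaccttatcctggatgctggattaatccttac
The Clec4b1, Clec4e and Clec4a1 windows hold 2 matches each and the Clec4a2 window 0. Over the 54 promoter windows listed for 47 measured members, 32 (59.3%) hold the motif on either strand, and 28.3% of all 32851 windows do. Of 8 windows of the chromosome 6 Clec4 genes, 6 hold it. TGANTCA occurs in 8 of the 54 member windows (14.8%) and 7.81% of all windows. These are matches of letters, and nothing in these data shows binding.

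Clec1b, the platelet receptor CLEC-2, which binds podoplanin and signals through SYK, fell just short of 2-fold. It gave 1007 ± 101 on the array labelled Sirpa-/- and 538.0 ± 53.8 on the WT array, 1.95-fold higher with a log2 difference of 0.97. Of its other probes, one gave 368.6 on the array labelled Sirpa-/- and 191.4 on the WT array (log2 difference 1.01). The last gave 219.1 on the array labelled Sirpa-/- and 201.9 on the WT array (0.18). All 3 probes were above 0, and 2 of them were close to 2-fold. Its ligand podoplanin (Pdpn), abundant in podocytes, gave -0.11. Platelet markers lay mostly above 0 beside it. All 8 were measured, 7 were above 0 and 0 passed 2-fold, and the median was 0.33. Among all 18239 measured genes, 9161 lay above 0. The granule chemokine genes Ppbp (0.91) and Pf4 (0.86) and the integrin Itga2b (0.90) lay close to Clec1b, and Gp9 (0.22), Gp1ba (0.15) and Gp1bb (-0.17, and 0.62 on its dimmer probe) did not. Their summed signal was 959.1 on the array labelled Sirpa-/- and 682.1 on the WT array. The part of platelet number in the Clec1b difference was not tested.

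Clec14a and Clec1a, lectins of the vessel wall, differed little. Clec14a, an endothelial protein that binds multimerin 2, gave 1454 on the array labelled Sirpa-/- and 1439 on the WT array, a difference of 0.08, with -0.02 on its other probe. Clec1a, also endothelial, gave 0.13, and multimerin 2 (Mmrn2) -0.10. The 8 endothelial markers had a median of -0.05. Of lectin-fold genes outside the symbol rule, Thbd (thrombomodulin) gave -0.83, Cd93 -0.42 and Cd248 0.17. Clec4g (LSECtin), known from sinusoidal endothelium of liver and lymph node, did not reach 2-fold, with 60.2 ± 6.19 on the array labelled Sirpa-/- and 103.6 ± 10.5 on the WT array, a difference of -0.72.

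Clec12b, which carries an inhibitory motif, had the closest agreement among probes that lay away from 0. One probe gave 493.4 on the array labelled Sirpa-/- and 739.5 on the WT array. The other gave 175.5 on the array labelled Sirpa-/- and 260.6 on the WT array. The log2 differences were -0.52 and -0.51. Clec12a was not well above background on either array. The Clec2 genes, which include the NK cell ligand Clec2d, had a median of -0.06 over 6 genes, and all 6 lay within 1.5-fold. Clec2d gave 4220 on the array labelled Sirpa-/- and 4672 on the WT array, a difference of -0.08. The members that are not membrane receptors lay near 0: Clec3b gave 0.03, Clec11a 0.00 and Clec16a -0.22, and Clec18a gave 0.00.

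Of the Clec genes, 2 were above background on the WT array alone, so that only a bound can be given. Clec2m gave 4.76 ± 1.32 on the array labelled Sirpa-/- and 12.2 ± 1.79 on the WT array, with a bound of 1.89-fold lower. Clec5a (MDL-1) is a myeloid receptor that pairs with Tyrobp. It gave 3.28 ± 1.33 on the array labelled Sirpa-/- and 8.30 ± 1.66 on the WT array, with a bound of 1.28-fold lower. Clec3a and Clec4f, the Kupffer cell lectin, were not well above background on either array. Clec7a (Dectin-1) had no probe with a matching accession and was not analysed here.

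The KLR genes lay within 1.5-fold about as often as all measured genes, in 18 of 20 cases (90.0%) against 90.4%. Of the 20, 1 was at least 2-fold higher and 0 were lower, against 1.56% and 1.67% of all measured genes, and the median was 0.12. Klrg2 was the one past 2-fold. Its signal was 102.1 ± 10.3 on the array labelled Sirpa-/- and 50.5 ± 5.36 on the WT array, 2.11-fold higher, and it was the only member past 2-fold that was not dim. It came from 1 probe, and with normexp its difference was 0.72. Klrg1, the cadherin receptor of mature NK and T cells, gave 70.6 on the array labelled Sirpa-/- and 70.0 on the WT array, a difference of 0.07. Of the cadherins on the list of ligands, Cdh1 (E-cadherin) gave 0.89, Cdh2 -0.32 and Cdh5 -0.11.

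Klra genes encode the Ly49 receptors for MHC class I. They are near-identical copies that vary in number between mouse strains, so a probe may read several of them. The 10 measured Klra genes had a median of 0.09, with 0 past 2-fold. Klra1 (Ly49A) gave -0.20. Klra17 (Ly49Q) gave 0.73 at dim signals of 17.4 on the array labelled Sirpa-/- and 10.9 on the WT array. Klra2 (Ly49B), which is found on myeloid cells, gave 217.9 ± 21.8 on the array labelled Sirpa-/- and 155.2 ± 15.6 on the WT array, a difference of 0.55. Klra8 (Ly49H), the activating receptor for mouse cytomegalovirus, gave 0.40 and 0.47 on its 2 measured probes. Klra16 gave -0.18, 0.37 and 1.13 on 3 probes, the highest at dim signals of 45.6 on the array labelled Sirpa-/- and 21.8 on the WT array. Klra5 was the only member with a probe spotted 10 times. Its spots averaged 116.0 ± 27.7 on the array labelled Sirpa-/- and 132.3 ± 31.6 on the WT array (SD, n = 10 spots of 1 array each), so spots of one probe overlapped widely between the arrays. These spots were neither scaled nor paired by position, so the overlap does not measure the spread of the difference.

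The other KLR genes had a median of 0.15 over 10. Klrd1 (CD94) gave 126.7 on the array labelled Sirpa-/- and 98.3 on the WT array, a log2 difference of 0.43, and its partner Klrc1 (NKG2A) gave -0.12. Their ligand H2-T23 (Qa-1) gave 0.20. Klrb1c (NK1.1) gave 0.31 at dim signals, Klre1 0.29 and its partner Klri2 -0.02. Klrb1b, the inhibitory receptor for Clec2d, gave -0.01 and Klrb1 -0.18. Klrk1 (NKG2D), Klrc3 and Klra10 were above background on the array labelled Sirpa-/- alone, so the filter itself sets their direction. Their bounds were 1.02-fold, 1.46-fold and 1.23-fold higher. Klrk1 gave 6.58 ± 1.39 on the array labelled Sirpa-/- and 5.98 ± 1.53 on the WT array. Klrc3 gave 11.1 ± 1.76 and 7.92 ± 1.80, and Klra10 9.26 ± 1.82 and 7.88 ± 2.07, in the same order. No difference is read from signals so close to their errors. Of the ligands of Klrk1, Ulbp1 gave 14.9 on the array labelled Sirpa-/- and 42.4 on the WT array, a difference of -1.45 at dim signals. H60b gave -0.65, Raet1e -0.31 and H60c 0.07. Klrb1f, Klrh1 and Klri1 were not well above background on either array. NK cell markers beside them had a median of -0.00 over 11 of 12 genes, with Gzma at -0.22 and Nkg7 at -0.11. Il2rb, at 1.11, was the only one past 2-fold, and 1.56% of all measured genes were at least 2-fold higher.

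Siglecf, the receptor of eosinophils and alveolar macrophages, was the lowest of the Siglecs. It gave 18.0 ± 2.20 on the array labelled Sirpa-/- and 43.0 ± 4.53 on the WT array, a log2 difference of -1.19. Its other probe was above background on the WT array alone, with 3.58 ± 1.34 on the array labelled Sirpa-/- and 8.00 ± 1.67 on the WT array. That probe lay near background and adds no support for a direction. Eosinophil markers lay below 0 beside it. Of 8 genes 6 were measured, all 6 lay below 0 with a median of -0.42, and 0 passed 2-fold. Among all 18239 measured genes, 9078 lay below 0. Ccr3 gave -0.85, Ear2 -0.66 and Il5ra -0.37. Their summed signal was 2158 on the array labelled Sirpa-/- and 3417 on the WT array. Epx, a defining granule gene, was not well above background on either array. Alox15 was above background on the array labelled Sirpa-/- alone, with 6.99 there and 6.25 on the WT array, both near background. The part of eosinophil number in the Siglecf difference was not tested.

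The other Siglec genes lay within 1.5-fold. Siglec1 (sialoadhesin), the macrophage receptor that is also induced by interferon, gave 115.4 ± 11.7 on the array labelled Sirpa-/- and 91.8 ± 9.45 on the WT array. Its difference was 0.39, with 0.11 on the other probe. Siglecg, which restrains B cell receptor signalling, gave 0.35 and, on its dimmer probe, -0.14. B cell markers moved much further, with 10 of 10 above 0, 5 at least 2-fold higher and a median of 1.29. Of all 18239 measured genes, 9161 lay above 0 and 1.56% were at least 2-fold higher. Cd22 (Siglec-2), itself counted among these B cell markers, is left out by the symbol rule. It gave 2562 on the array labelled Sirpa-/- and 536.2 on the WT array, a log2 difference of 2.32. Siglece, an inhibitory Siglec of neutrophils and macrophages, gave 3612 on the array labelled Sirpa-/- and 3504 on the WT array, a difference of 0.11, and Siglec15 gave 0.13. Siglech, a marker of plasmacytoid dendritic cells, gave 35783 on the array labelled Sirpa-/- and 40543 on the WT array with one probe. Its other probe gave 22.5 on the array labelled Sirpa-/- and 25.2 on the WT array. Both probes gave a difference close to 0, at -0.12 and -0.10. Probe sequences were not at hand, so whether the bright probe reads Siglech was not checked. Its signal is no measure of plasmacytoid dendritic cells. Of 9 plasmacytoid markers, all measured, 2 were at least 2-fold higher, against 1.56% of all measured genes. These were Ly6d (1.66) and Spib (1.40), both also expressed by B cells, and Ccr9 gave -0.84.

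**Figure D3:**
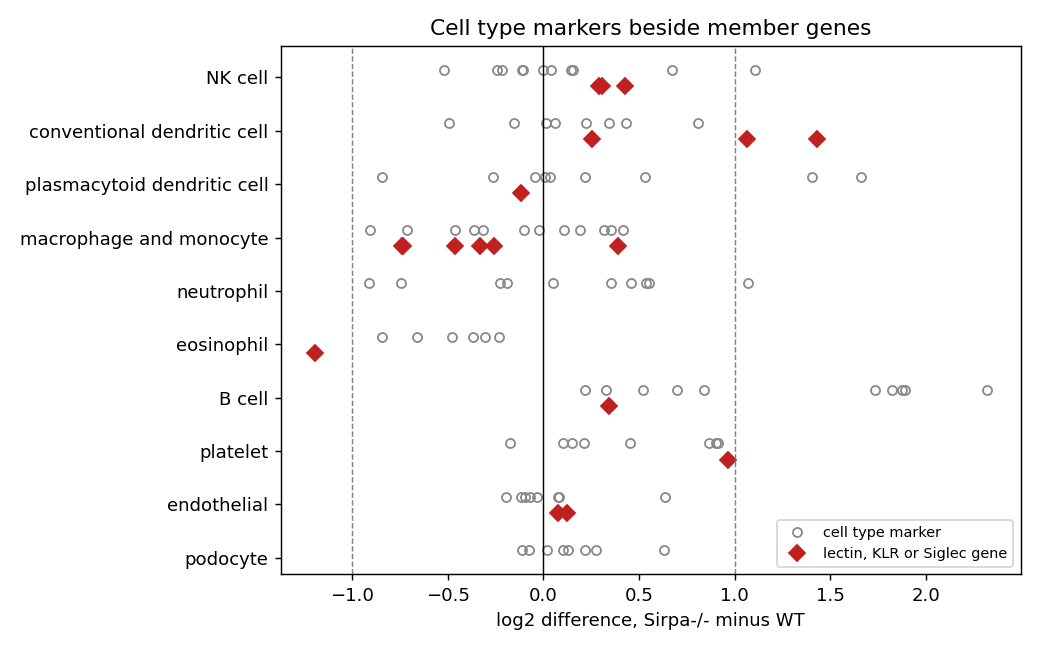
Log2 difference (x axis, array labelled Sirpa-/- minus WT array) of the measured markers of 10 cell types as grey circles, with chosen lectin, KLR and Siglec genes known from the same cells as red diamonds under them. Not every such member is drawn, and the drawn NK cell and conventional dendritic cell members are all positive. Among those left out are the myeloid receptors Clec4b1 (-2.25) and Clec4a2 (-1.75), and Clec4g (-0.72). Also left out are Klra1 (-0.20), Klrb1 (-0.18), Klrc1 (-0.12), Klri2 (-0.02), Klrb1b (-0.01) and Klra8 (0.40). Siglecf lies at -1.19 below the 6 eosinophil markers, and Clec1b at 0.97 beside the 3 highest platelet markers.

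Lectin-fold and Siglec genes whose symbols the rule does not match are given for comparison. Of 31 on that list, 27 were measured, with 3 at least 2-fold higher, 1 at least 2-fold lower and a median of -0.02. Of all measured genes, 1.56% were at least 2-fold higher and 1.67% lower. The higher ones were Cd22, the low-affinity IgE receptor Fcer2a (1.74), which B cells also carry, and the mannose-binding lectin Mbl2 (1.25). Cd22 and Fcer2a were also counted among the B cell markers above. The lower one was Asgr1 (-1.25), the hepatocyte asialoglycoprotein receptor. Fcer2a, Mbl2 and Asgr1 were dim, and 4.00% of all dim genes were at least 2-fold higher and 4.12% lower. Thrombomodulin (Thbd) gave -0.83 and the B cell lectin Cd72 0.75. Cd33 gave 0.46 and Cd69, induced on activated lymphocytes, -0.18. Of the ligand list, 18 of 20 genes were measured, with 0 higher, 1 lower (Ulbp1) and a median of -0.08. Genes that make, transfer or remove sialic acid, the sugar that Siglecs bind, had a median of 0.05 over 13 genes and 0 past 2-fold, with St8sia4 at -0.54 and Neu1 at 0.27. Of a list of 4 phosphatases, Ptpn6 (SHP-1) and Ptpn11 (SHP-2), which inhibitory motifs recruit, each gave -0.10. Inpp5d on that list gave 0.21, and Inpp5b, which is not known to bind such motifs, gave -0.12.

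**Figure D4:**
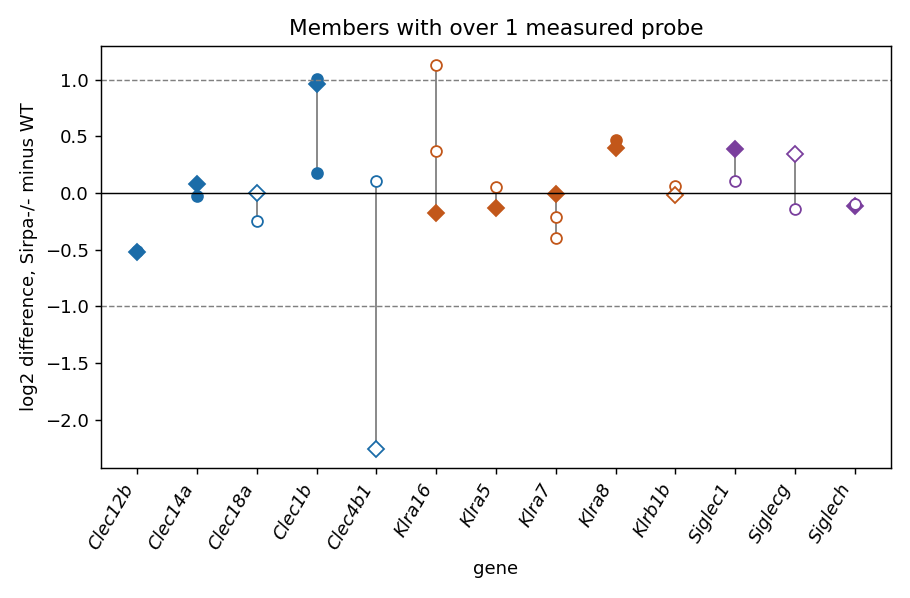
Log2 difference (y axis, array labelled Sirpa-/- minus WT array) of every measured probe of the 13 members (x axis) with more than 1; diamonds are the probes used for the gene, open symbols are dim and dashed lines mark 2-fold. The probes of Clec12b lie together near -0.5, while those of Clec4b1 span 2.36.

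Probe agreement bounded how far single members can be read. Of the 13 members with more than 1 measured probe, 6 (46.2%) had all probes on the same side of 0, as had 59.2% of all genes with more than 1 measured probe. The probes of 2 members, Clec4b1 and Klra16, spanned more than 1 on the log2 scale (15.4%), as did those of 4.30% of all such genes. Of the 8 members past 2-fold, Clec4b1 alone had a second probe measured on both arrays, and that probe did not agree. Compared at the same position, spots of 79 dim probes spotted 10 times differed between the arrays with a median SD of 0.34. Those of 281 other probes differed with one of 0.06. This covers technical spread within the arrays and nothing of the spread between mice.

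**Figure D5:**
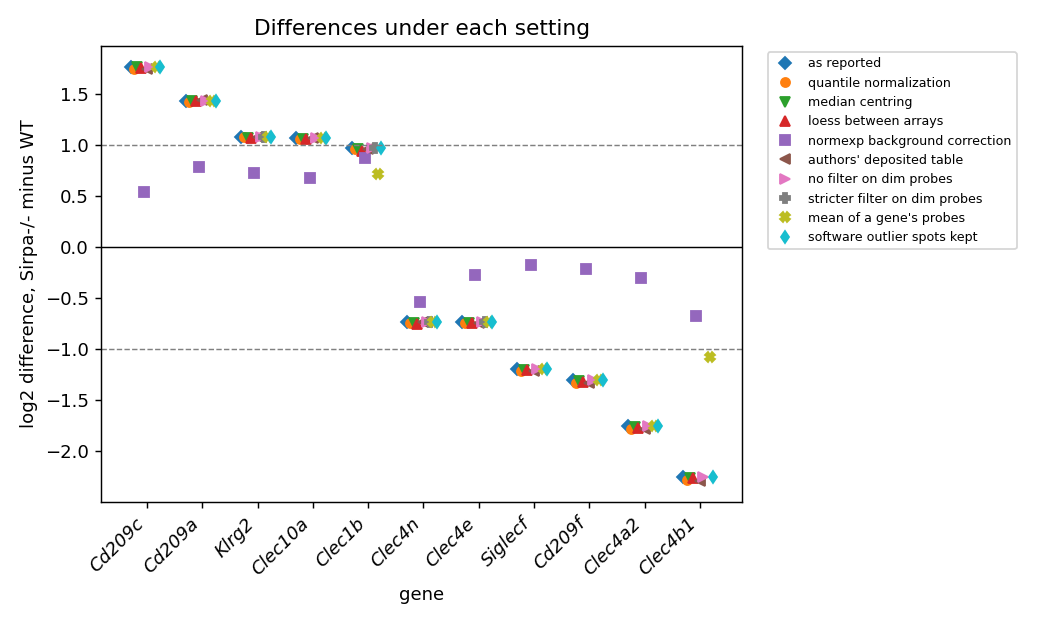
Log2 difference (y axis, array labelled Sirpa-/- minus WT array) of 11 members (x axis) as reported and under 9 other ways of processing, each with its own symbol; dashed lines mark 2-fold. The setting that requires a signal of at least 50 on both arrays has no value for the dim genes. These are Cd209c, Cd209a, Clec10a, Siglecf, Cd209f, Clec4a2 and Clec4b1, which have 8 other settings each. With normexp background correction, the purple squares of all 11 lie inside the dashed lines and on the same side of 0 as reported.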

How the data were processed

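Total RNA of glomeruli from the 2 groups was labelled with Cy3 and read on 1 Agilent array each, from 0.25 µg of RNA, per the labels' protocols. The deposited scanner files hold intensity per spot, which the authors extracted with Agilent Feature Extraction 11.0.1.1, per the file headers; the submitters' processing notes name 9.1. The authors' deposited table holds log2 values with a median of 6.50 in both columns. Its scale is log2, its genes are not centred, and over measured probes r was 1.0000 between a column and the array with the same label; the sources used here do not state its normalization steps.

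From gProcessedSignal, log2 was taken, spots marked as outliers (98 gene spots on the array labelled Sirpa-/- and 123 on the WT array) were left out, spots of a probe were averaged and each array's 75th percentile (a signal of 1109 on the array labelled Sirpa-/- and 1157 on the WT array) was subtracted. A probe counted as measured when the software flagged over 50% of its spots as well above background on each array. Names came from the unversioned RefSeq accession in a gene table of GRCm38.p6: 27234 of 39429 matched. Since the array design predates that assembly, the table gave names and chromosomes only. A bound divides the bright scaled signal by the dim one, or by the lowest signal above background of that array (6.21 on the array labelled Sirpa-/-, 6.72 on the WT array) where this is higher. It leaves out the errors of the spots, and its direction follows from the filter. The calculation was tested on simulated data. The genes named are all members past 2-fold, those with bounds, the largest differences per family, a fixed set of members, and members whose probes disagree; a few other members were named after their values were seen. The members and lists were chosen with earlier results of these data known. Normexp used the median spot signal, since no mean signal was in the files. Alternatives were run with limma 3.58.1.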

Additional observations from a re-analysis of the deposited data

How the results depend on the processing

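Having 1 array per group, no setting could leave out a replicate. No paired analysis was possible because no result comes from a test. Quantile normalization, median centring, loess, the authors' deposited table, the mean of a gene's probes and keeping outlier spots each gave 4 members at least 2-fold higher and 4 lower. With normexp (offset of 50) the counts were 0 and 0 and the members' median was 0.11, where the median of all genes was 0.07. This setting also took another signal column, and the cause was not tested. Without a filter on dim probes, 5 members were higher and 8 lower among 70, where 3.24% and 2.97% of all genes were. Requiring a signal of at least 50 on both arrays left 1 higher and 0 lower among 35 (0.856% and 0.962% of all genes). At 1.5-fold the counts were 7 higher and 7 lower (4.34% and 5.27% of all genes), and at 3-fold 1 and 2 (0.537% and 0.400%). Of 499 single-member values, 0 called differences changed sign, and 21 moved beyond the technical error. Dim signals limit the reading of 7 of the 8 members past 2-fold.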
